A study of Homo sapiens with 12 samples.

Results

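The change of cap enrichment by eIF4E was described for every expressed gene of U2OS cells, a human osteosarcoma line. Cap enrichment is the log2 ratio of a gene's level in RNA pulled down through its cap (Cap IP) to its level in total RNA (input). Its change is the enrichment in cells that carried eIF4E-Flag minus the enrichment in cells that carried the vector, which is the interaction of the expressed protein and the fraction. All genes with enough counts were members. They numbered 12460 of the 58684 listed, of which 33699 had at least 1 count.

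The 7-methylguanosine (m7G) cap is added to the first transcribed base of RNA polymerase II transcripts as they are made, and it protects them from decay and recruits the machinery of splicing, export and translation. RNGTT adds the guanosine, RNMT with its activating subunit methylates it, and CMTR1 and PCIF1 methylate the first transcribed nucleotide. eIF4E binds the cap, brings mRNAs to the ribosome and also acts in the nuclear export of some of them. Transcripts of RNA polymerase III and of mitochondria carry no such cap.

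By its title, the study asked how eIF4E acts on the capping of transcripts, whether they code for protein or not. The 4 groups were vector input, vector Cap IP, eIF4E-Flag input and eIF4E-Flag Cap IP, with 3 libraries in each and 12 in all. All cells were U2OS from ATCC. The labels mention both transient transfection and stable lines without saying which made these cells, and they do not give the promoter or whether a line was 1 clone or a pool. Libraries were made with the KAPA RNA HyperPrep kit with RiboErase, which removes ribosomal RNA, and sequenced as single reads in a run of 75 cycles. An input and a Cap IP library whose titles begin alike are called a stem here, so that there were 3 vector and 3 eIF4E stems, numbered as replicates 1 to 3. The titles also hold a code whose meaning the labels do not give. It differs between vector and eIF4E cells in replicate 1, where it cannot be told apart from the expressed protein, and is the same in all libraries of the other replicates. The labels do not say that a stem or a replicate is a separate culture, and p-values therefore measure only the spread between these libraries.

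Libraries held 1206321 to 1813486 counts. Of 10 osteoblast markers only 3 had enough counts to be tested, and the bone sialoprotein gene IBSP was at 0 in every library. Their summed level lay between 725 and 1100 CPM (counts scaled to library size) in vector input and between 603 and 742 in eIF4E input. Of 8 mesenchymal markers 6 had enough counts to be tested, and TWIST1 was at 0. All 8 summed to 1010 to 1700 CPM in vector input and 1180 to 1430 in eIF4E input. Blood markers summed to at most 3.12 CPM in any library. Epithelial markers summed to 1120 to 1770 CPM in vector input and 1950 to 3150 in eIF4E input, and to 2670 to 4100 and 4450 to 6080 in Cap IP. KRT8 made up 96.5% to 99.3% of their counts. The part of KRT8-expressing cells in the results below was not tested, and in these bulk samples fewer cells of a type and less RNA per cell cannot be told apart. No source used here gives the strand setting of the counting. Where exons of another gene lie on the opposite strand, it is uncertain which strand was counted, and such a gene is given where it has a name.

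No gene passed. The genes named first here were picked for a small unadjusted p and separate stems, not for the size of their change. RFFL, which encodes an E3 ubiquitin ligase, and RASA1, the gene of a Ras GTPase-activating protein, had a higher enrichment in eIF4E than in vector cells. So did the long noncoding RNA USP3-AS1. Their log2 changes were 1.78, 1.91 and 1.48, in this order. CPNE1, the gene of a calcium-dependent membrane-binding protein, and VASN, whose product binds TGF-beta, had a lower enrichment in eIF4E cells, with changes of -1.85 and -1.62. As classes, named long noncoding RNAs, pseudogenes and genes under a clone name, whose type is unknown here, had medians above 0. Protein-coding genes, mitochondrial mRNAs aside, had a median of -0.14. It was -0.018 for those with exons opposite to another gene. The 12 mitochondrial tRNAs and rRNAs had a median of 1.70, which was 0.66 relative to all genes without vector input replicate 1.

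By edgeR's quasi-likelihood test on the counts, 0 of 12460 genes passed a Benjamini-Hochberg adjusted p of 0.05, which is 0% of those tested, and the smallest adjusted p was 0.833. Without adjustment, 728 genes (5.84%) had a p under 0.05, 467 higher (3.75%) and 261 lower (2.09%) in eIF4E cells. DESeq2 and limma on the stem ratios called 0 as well, with 669 and 1362 genes at an unadjusted p under 0.05. The median change over all genes was 0.019, and 83.9% of genes lay within 1 log2 unit of 0, with a median SE of 0.59. Across genes, enrichment in vector cells and in eIF4E cells went together, with Pearson's r of 0.861 and Spearman's rho of 0.871 over 12460 genes, which are not independent replicates. In 1044 genes (8.38%) all 3 eIF4E stems lay above all 3 vector stems, and in 1035 (8.31%) all lay below. Library sizes were scaled so that most genes do not differ, and a change of capping shared by all transcripts would be removed by that step and was not measured.

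Genes were grouped by what the annotation calls them. The 9221 protein-coding genes tested had a median change of -0.14, with 3869 above 0. Of them, 504 had eIF4E stems wholly above the vector stems (5.47%, against 8.38% over all genes) and 984 wholly below (10.7%, against 8.31%). The 2240 genes listed under a clone name, which the annotation did not match and whose type is therefore unknown here, had a median of 0.38 with 1785 above 0. Among these, 384 (17.1%) had stems wholly above and 28 (1.25%) wholly below. The 576 named long noncoding RNAs had a median of 0.34, with 93 wholly above and 9 wholly below. The 269 pseudogenes had a median of 0.42, with 47 above and 10 below, and their reads may come from near-identical copies. The 432 genes named as antisense to another gene had a median of 0.39, with 348 above 0.

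Each class was also followed stem by stem. Clone-named genes had median enrichments of 0.46, 0.75 and 0.20 in the vector stems against 1.02, 0.87 and 0.67 in the eIF4E stems. The ranges of the 2 kinds of cell overlapped, since vector replicate 2 lay above eIF4E replicate 3. Protein-coding genes without opposite exons had medians of -0.24, -0.39 and -0.12 in the vector stems against -0.49, -0.46 and -0.40 in the eIF4E stems, which did not overlap. The gap between both classes, which a scaling of the library moves only through the pseudocount, was 0.70, 1.14 and 0.32 in the vector stems against 1.51, 1.33 and 1.07 in the eIF4E stems. It was widest in eIF4E replicate 1 and narrowest in vector replicate 3, and vector replicate 2 lay above eIF4E replicate 3. For named long noncoding RNAs the same gap was 0.90, 1.38 and 0.63 against 1.59, 1.48 and 1.14. Without both libraries of vector replicate 3, the median change relative to all genes was 0.20 for named long noncoding RNAs, 0.24 for antisense-named genes and -0.16 for coding genes without opposite exons, against 0.32, 0.37 and -0.26 with them.

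**Figure D1:**
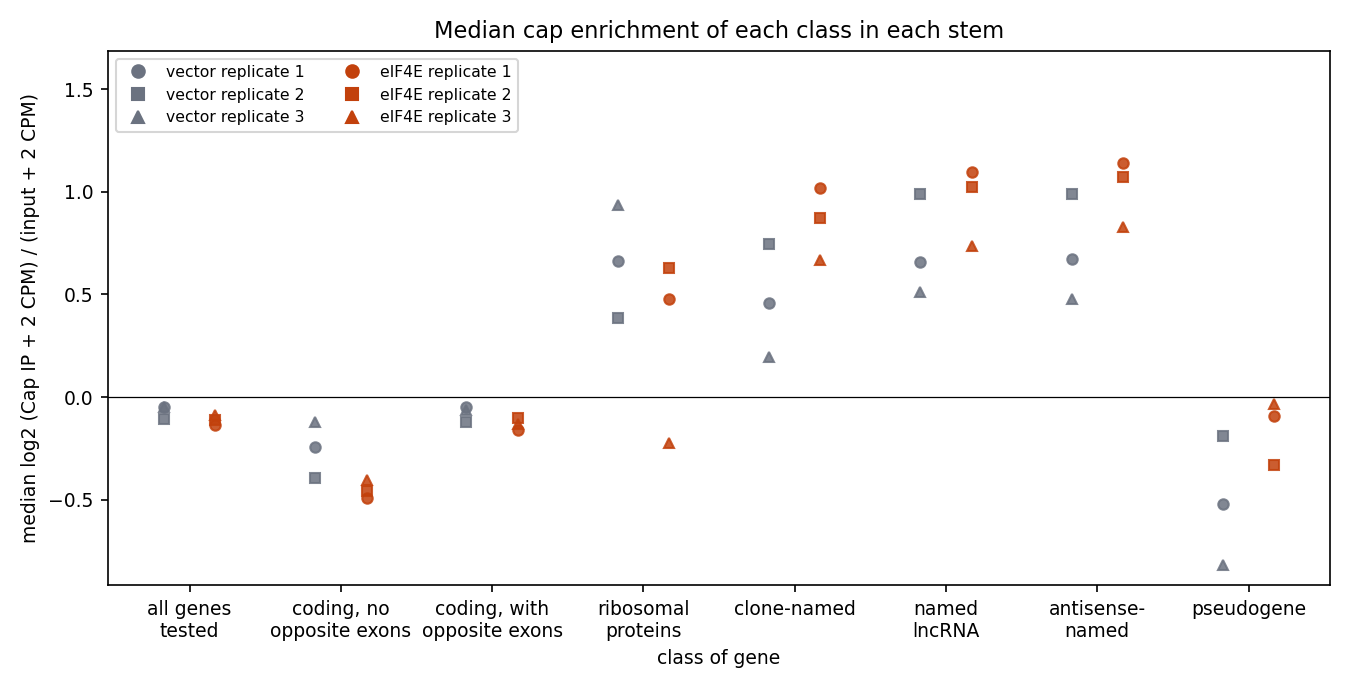
Median cap enrichment (log2 of Cap IP + 2 CPM over input + 2 CPM, vertical axis) of each class of gene (horizontal axis) in the 3 vector stems (grey) and the 3 eIF4E stems (orange), 1 symbol per replicate. Clone-named, long noncoding and antisense-named genes lay above 0 in all 6 stems, coding genes without opposite exons lay below 0, and the lowest ribosomal protein median, -0.22, belonged to eIF4E replicate 3.

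Input and Cap IP were also compared separately. For clone-named genes the median difference of eIF4E against vector cells was -0.35 in input and 0.12 in Cap IP. For named long noncoding RNAs these were -0.37 and 0.014. Clone-named genes took 33.1% to 34.3% of the counts in vector input and 28.6% to 31.8% in eIF4E input, and 40.9% to 48.5% and 44.9% to 47.0% in Cap IP. Protein-coding genes took 51.2% to 54.7% in vector input and 56.8% to 60.5% in eIF4E input. The input shares of both classes did not overlap between the 2 kinds of cell, while the Cap IP shares did.

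The medians of both classes kept their sign at each level of expression. Split at average log2 CPM of 3.595 and 5.005 into 3 equal parts of all genes, clone-named genes had medians of 0.53, 0.45 and 0.31 from the lowest to the highest. Protein-coding genes had -0.055, -0.15 and -0.18. Of the clone-named genes, 225 had a group with at most 3 counts, and with those put at a ratio of group counts with a floor of 3 counts the class median was 0.40. For pseudogenes, 61 such genes moved the median to 0.57.

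**Figure D2:**
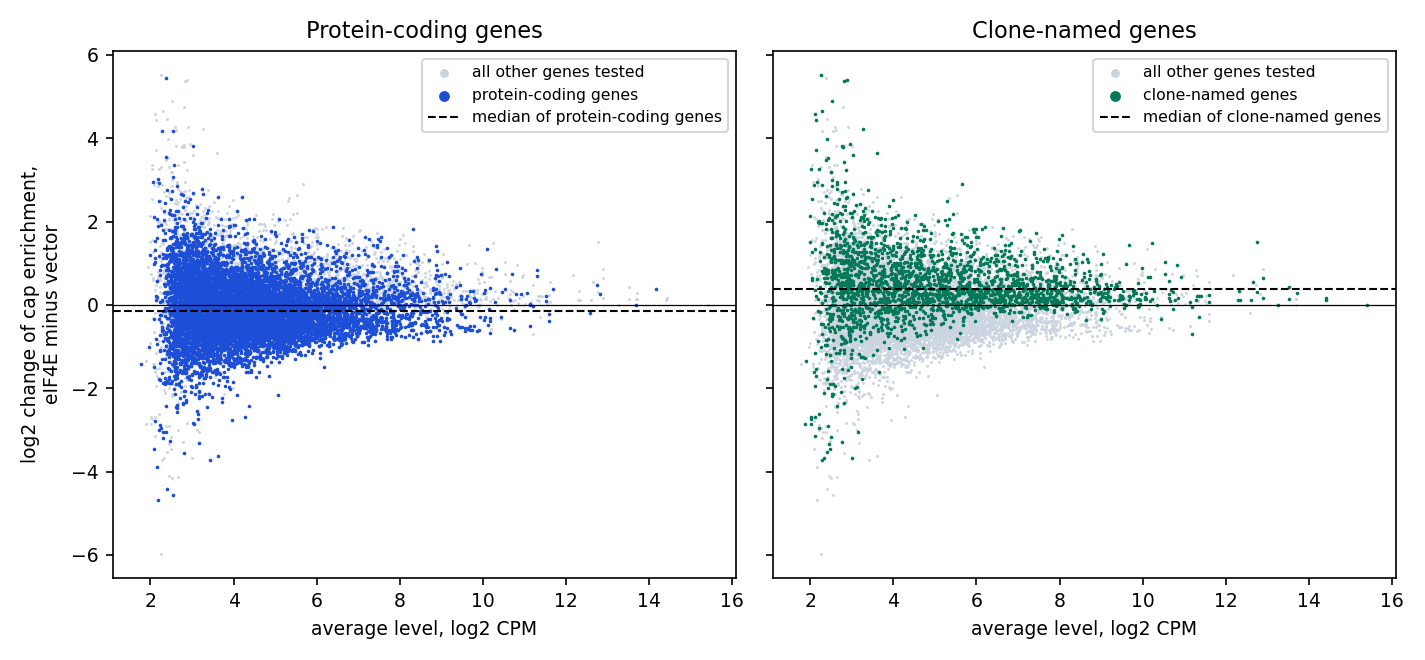
Log2 change of cap enrichment (eIF4E minus vector, vertical axis) against the average level of each gene in log2 CPM (horizontal axis), with protein-coding genes coloured on the left and clone-named genes on the right. The dashed lines mark the class medians, -0.14 and 0.38, and the spread narrows as the level rises.

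Among protein-coding genes, those with exons opposite to another gene stood nearer to 0 than those without. The 4586 genes with opposite exons had a median change of -0.018 and the 4635 without had -0.24. Without opposite exons, the change also went with exon length. Cut at total exon lengths of 3495, 5533 and 8437 bases, they had medians of -0.37, -0.30, -0.23 and -0.052 from the shortest to the longest. Among the shortest, 361 of 1296 genes lay above 0, and among the longest 467 of 1020. The stem medians for the shortest were 0.27, 0.079 and 0.46 in vector cells against -0.051, 0.046 and -0.25 in eIF4E cells. For the longest they were -0.67, -0.81 and -0.70 in vector cells against -0.89, -0.87 and -0.39 in eIF4E cells, which overlapped.

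With the stem entered as a block, so that each Cap IP library was set against its own input, edgeR called 51 genes at an adjusted p of 0.05, all of them higher in eIF4E cells (0.409% of those tested), and 0 lower. The check of the residuals did not establish that stems pair the libraries. The inputs of eIF4E replicates 2 and 3 correlated at 0.08 and 0.11 with their own Cap IP library, and at up to 0.11 and 0.17 with that of another stem. The 51 comprised 29 clone-named genes, 13 protein-coding genes, 4 named long noncoding RNAs, 4 mitochondrial tRNAs and 1 pseudogene. All 13 protein-coding genes had exons opposite to another gene, against 4586 of the 9221 coding genes tested. Levels in input stood lower in eIF4E cells for 50 of the 51, with a median of -0.98, and levels in Cap IP stood higher for 50, with a median of 0.69. These signs follow in part from the choice of the 51, since the change is the Cap IP difference minus the input difference. The count of genes called was 0 without vector replicate 3, and 0 with library sizes from total counts or from mitochondrial mRNAs. It was 40 and 31 without vector and eIF4E replicate 1, 122 and 161 without replicate 2 of each, and 139 without eIF4E replicate 3.

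Of the coding genes called with the block, CEBPZ, opposite to CEBPZOS and 1 unnamed gene, had stem enrichments of 1.79, 3.11 and 1.29 in vector cells against 3.71, 3.75 and 3.44 in eIF4E cells. All eIF4E stems lay above the vector stems, as they did for 49 of the 51. MSH6, a mismatch repair gene opposite to FBXO11, had 1.02, 1.08 and -0.63 against 2.59, 1.55 and 2.28. LGALS8, which encodes a galectin and lies opposite to HEATR1, had -2.08, -1.59 and -2.08 against -0.084, -0.99 and -0.022. These 3 were chosen after their values were seen. The clone-named RP11-295I5.4 had the largest change of the 51, 2.90 ± 0.75 (SE), with input counts of 25, 17 and 33 in vector cells against 6, 11 and 3 in eIF4E cells. Its Cap IP counts were 90, 93 and 32 against 174, 125 and 67. This gene, the clone-named RP11-681H18.2 and the mitochondrial tRNA MT-TE were the 3 genes that passed when no filter on low counts was used and 33699 genes were tested (edgeR adjusted p = 0.0113, 0.0414 and 0.0113).

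In each direction 12 genes are named next, those with the smallest p. They had stems that did not overlap, an average log2 CPM no lower than 2 and no clone name. The separation of their stems was thus a condition of the choice. Of those standing higher, 10 had exons opposite to another gene, 11 had a lower input level in eIF4E cells and 11 a higher Cap IP level. Their log2 changes ran from 1.44 to 2.54 and their unadjusted p from 0.000962 to 0.00314. Of those standing lower, 6 had opposite exons, 11 had a higher input level and all 12 a lower Cap IP level. For comparison, 4586 of the 9221 tested coding genes had opposite exons. A large change needs a difference of level in at least 1 fraction, so the signs in input and Cap IP also follow in part from the choice.

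RFFL lies on chromosome 17 at 35005990 to 35089319 of GRCh38, opposite to the DNA ligase gene LIG3. Its input levels were 133, 90.9 and 132 CPM in vector cells against 71.9, 62.1 and 50.4 in eIF4E cells. In Cap IP they were 26.3, 12.6 and 16.6 CPM in vector cells against 43.1, 33.8 and 21.8 in eIF4E cells. The input libraries did not overlap between the 2 kinds of cell, while eIF4E Cap IP replicate 3 lay below vector Cap IP replicate 1. Stem enrichments were -2.26, -2.67 and -2.85 against -0.71, -0.84 and -1.14, and the change was 1.78 ± 0.46 (SE, 3 stems each; edgeR adjusted p = 0.833, and adjusted p = 0.0243 with the stem as a block).

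RASA1, on chromosome 5 at 87267883 to 87391931 and opposite to the cyclin gene CCNH, had stem enrichments of -1.14, 0.13 and -0.94 in vector cells against 0.89, 0.87 and 1.32 in eIF4E cells. Its change was 1.91 ± 0.52, and with the block the adjusted p was 0.0684. NUDT6, on chromosome 4 at 122888697 to 122922968, is transcribed against FGF2, the gene of basic fibroblast growth factor. Its Cap IP levels were 43.8, 54.7 and 19.2 CPM in vector cells against 142, 136 and 88.2 in eIF4E cells, with input at 16.8, 23.0 and 21.5 against 19.8, 26.4 and 13.5. The Cap IP libraries stood apart and the input libraries overlapped. The change was 1.70 ± 0.51 for NUDT6 and 0.75 ± 0.46 for FGF2, whose stems were 1.60, 2.02 and 1.66 in vector cells against 2.38, 3.07 and 2.09 in eIF4E cells.

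The cap sits on the first transcribed base. The starts of these 3 opposite pairs are shown to place it on each strand, with 20 bases before the start, the first transcribed base of the RefSeq start as the capital, and 9 bases after it (GRCh38.p14, each 5′ to 3′ on its gene's strand). RFFL lies at chr17:35089217-35089246 on the minus strand, LIG3 at chr17:34980492-34980521 on the plus strand, RASA1 at chr5:87268917-87268946 (plus), CCNH at chr5:87412921-87412950 (minus), NUDT6 at chr4:122922959-122922988 (minus) and FGF2 at chr4:122826811-122826840 (plus).
RFFL: accgcccccgggtgcccctcAgccccagag
LIG3: gcgcctgcgcgctgcctcccGctctaggac
RASA1: ggtgactctctggatggaccAgaatacgag
CCNH: ggccgcgtaatcgtgacgacAgcgcgccag
NUDT6: gactgagcgttttcaaaaccAgcagtcttt
FGF2: gacgccgcggcccggcgggtGccagattag

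The gene of the long noncoding RNA USP3-AS1, on chromosome 15 at 63544247 to 63601589, lies opposite to FBXL22 and the deubiquitinase gene USP3. Its input levels were 171, 170 and 172 CPM in vector cells against 97.6, 109 and 100 in eIF4E cells, which did not overlap. Its Cap IP levels were 334, 414 and 192 CPM against 654, 562 and 355, so that eIF4E replicate 3 lay below vector replicate 2. The change was 1.48 ± 0.42 (edgeR adjusted p = 0.0372 with the block). RSPH10B, a gene of the ciliary radial spoke that has a near-identical copy and lies opposite to CCZ1, had stems of 1.65, 2.27 and 0.94 in vector cells against 4.20, 3.49 and 2.69 in eIF4E cells. The change was 1.83 ± 0.52, its counts may be split with the copy, and the adjusted p with the block was 0.0195.

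CDR1, opposite to LINC00632 on the X chromosome, stood lower in both fractions of eIF4E cells. Its input levels were 875, 468 and 675 CPM in vector cells against 123, 85 and 126 in eIF4E cells, and its Cap IP levels were 139, 127 and 170 against 70.8, 57.0 and 68.4. Neither fraction overlapped. Since the input difference was the larger, -2.60 against -1.16 in Cap IP, the change of enrichment was 1.44 ± 0.41. ACTA2, the gene of smooth muscle actin, lies opposite to ACTA2-AS1 and FAS. Its stems were -1.19, -0.32 and -0.97 in vector cells against 0.13, 1.24 and 0.94 in eIF4E cells. RFX7, a transcription factor gene opposite to TEX9, had -2.57, -1.99 and -2.35 against -1.15, -0.57 and -0.82. ATP8B1, the gene of a phospholipid flippase, opposite to ATP8B1-AS1, had -2.17, -0.76 and -1.64 against 0.83, 0.23 and 0.00040.

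Few counts stood behind some of the others. The pseudogene HTR5BP, which has no opposite exons, had input counts of 58, 25 and 88 in vector cells against 44, 35 and 17 in eIF4E cells, and Cap IP counts of 24, 30 and 30 against 58, 53 and 41. The Cap IP counts stood apart and the change was 2.05 ± 0.54 (edgeR adjusted p = 0.0296 with the block). MBOAT4, the ghrelin acyltransferase gene and opposite to LEPROTL1, had Cap IP counts of 1, 2 and 5 in vector cells against 19, 13 and 9 in eIF4E cells, with a change of 2.54 ± 0.76. TMEM75 had 2, 2 and 2 against 5, 6 and 10 Cap IP counts beside 100 to 221 in each input library.

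**Figure D3:**
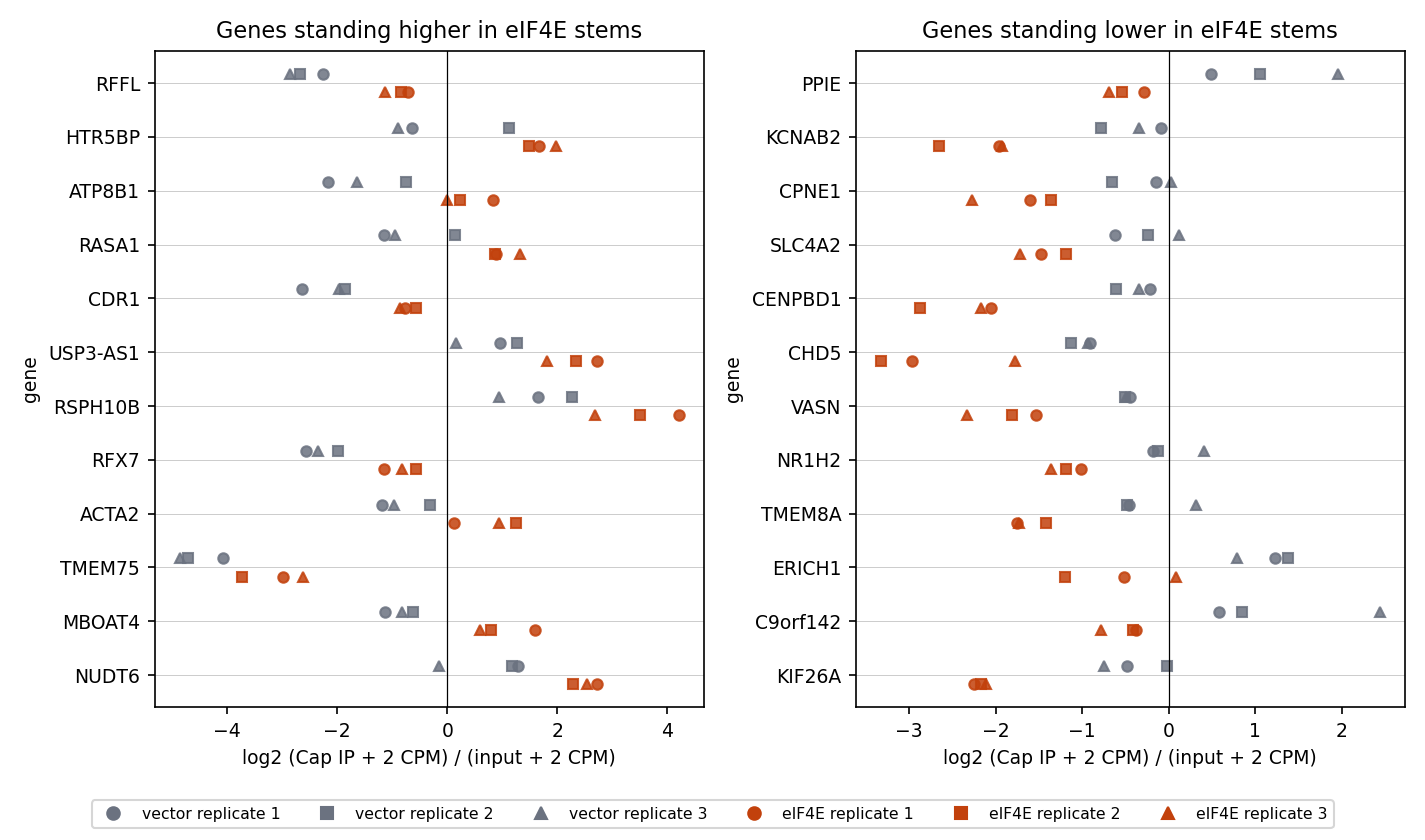
Cap enrichment (log2 of Cap IP + 2 CPM over input + 2 CPM, horizontal axis) of the 12 named genes standing higher (left) and the 12 standing lower (right) in eIF4E cells, with 1 symbol per stem, grey for vector and orange for eIF4E. The genes were chosen among those whose stems do not overlap. Among them, CDR1 and RFFL stayed below 0 in all 6 stems, and RSPH10B and USP3-AS1 stayed above 0.

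Among genes standing lower, VASN, on chromosome 16 at 4371848 to 4383538 with no opposite exons, had stem enrichments of -0.45, -0.51 and -0.49 in vector cells against -1.53, -1.82 and -2.33 in eIF4E cells. The vector stems were close together and the change was -1.62 ± 0.52. CPNE1 lies on chromosome 20 at 35626031 to 35664956 and had -0.15, -0.65 and 0.029 against -1.61, -1.36 and -2.27, a change of -1.85 ± 0.56. SLC4A2, an anion exchanger gene opposite to an unnamed gene, had input levels of 45.9, 44.9 and 38.8 CPM in vector cells against 63.6, 64.0 and 73.2 in eIF4E cells. Its Cap IP levels were 29.2, 37.8 and 42.1 against 21.5, 27.0 and 20.8, and neither fraction overlapped. The change was -1.29 ± 0.39.

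NR1H2, which encodes the oxysterol receptor LXR-beta and lies opposite to NAPSA, had stems of -0.18, -0.13 and 0.41 in vector cells against -1.02, -1.18 and -1.36 in eIF4E cells. TMEM8A, a transmembrane protein gene opposite to an unnamed gene, had -0.45, -0.48 and 0.32 against -1.76, -1.42 and -1.73. PPIE, a cyclophilin gene of the spliceosome and opposite to BMP8B, went from above 0 in all vector stems (0.49, 1.05 and 1.96) to below 0 in all eIF4E stems (-0.29, -0.54 and -0.69). C9orf142, also known as PAXX and acting in DNA end joining, had 0.59, 0.85 and 2.44 against -0.38, -0.42 and -0.78. KCNAB2, a potassium channel subunit gene opposite to NPHP4, had a change of -2.24 ± 0.66 with 2, 3 and 5 Cap IP counts in eIF4E cells. ERICH1, opposite to DLGAP2, had 4, 3 and 4 there, with a change of -2.27 ± 0.75.

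For the remaining 3 the eIF4E Cap IP libraries were near 0. CHD5, a chromatin remodeller gene, had 26, 8 and 24 counts in vector Cap IP and 1, 0 and 3 in eIF4E Cap IP, beside 76, 39 and 74 in vector input and 55, 37 and 29 in eIF4E input. KIF26A, a kinesin family gene, had 8, 6 and 5 against 0, 2 and 1 in Cap IP. CENPBD1, listed as a pseudogene, had 6, 1 and 4 against 0, 0 and 1. No fold is given for KIF26A and CENPBD1, whose eIF4E Cap IP group held at most 3 counts.

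The enzymes that make and modify the cap, and eIF4E itself, did not pass. EIF4E, opposite to an unnamed gene, had stem enrichments of 0.50, 1.10 and 1.35 in vector cells against 0.87, 0.84 and 1.05 in eIF4E cells. The stems overlapped and the change was -0.19 ± 0.49. Its input level was 9.70, 4.81 and 6.32 CPM in vector cells against 15.4, 13.2 and 11.9 in eIF4E cells, which did not overlap. CMTR1 was the enzyme gene most depleted from Cap IP, with -1.61, -2.0 and -1.61 against -0.75, -1.64 and -2.17. Its change was 0.29 ± 0.54. RNMT, opposite to FAM210A, stood at 0.87 ± 0.74, its activator FAM103A1 (RAMAC), opposite to C15orf40, at -0.24 ± 0.62 and PCIF1, opposite to an unnamed gene, at -0.28 ± 0.42. TGS1, which makes the trimethylguanosine cap of small nuclear RNAs, stood at 0.48 ± 0.63. RNGTT and CMTR2, with 62 and 53 counts in all, were too low to be tested.

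Of 20 tested cap-binding proteins and partners of eIF4E, 9 had a change above 0 and the median was -0.14. EIF4G1, the scaffold that ties eIF4E to the ribosome, had stems of -1.64, -2.26 and -1.51 in vector cells against -2.37, -2.43 and -2.52 in eIF4E cells, which did not overlap, and a change of -0.61 ± 0.39. The helicase cofactor EIF4H stood at -0.64 ± 0.42 and the eIF4E inhibitor EIF4EBP1 at -0.69 ± 0.56. EIF4E3, a relative of eIF4E opposite to GPR27, stood at 0.96 ± 0.68. The 19 decapping and 5-prime decay genes had a median of -0.21, with 7 above 0. Without both libraries of eIF4E replicate 1 that median was 0.032 relative to all genes, and without those of eIF4E replicate 2 the median of the cap-binding proteins and partners was 0.065. LSM7, a ring subunit that feeds the decapping step, had the smallest p, at -1.09 ± 0.51.

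Transcripts without an m7G cap were described in the same way. RN7SK, the RNA that restrains transcription elongation, had stem enrichments of -8.96, -9.67 and -7.13 in vector cells against -7.67, -8.07 and -8.53 in eIF4E cells. The change was 0.0020 ± 0.48. RMRP, the RNA of RNase MRP, stood at 0.085 ± 0.73, RPPH1, the RNA of RNase P, at -0.58 ± 0.59 and RN7SL1, the signal recognition particle RNA, at 0.71 ± 0.87. The 4 RNAs with a trimethylguanosine cap stood between 0.38 ± 0.56 for SNORD3A and 1.06 ± 0.65 for RNU12. Their stems overlapped in every case. Of 17 intron-encoded snoRNAs and scaRNAs, 10 had a group of at most 3 counts, and the median was -0.26 as fitted and 0.013 with those 10 at their ratio of counts.

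Mitochondrial tRNAs and rRNAs, also made without an m7G cap, stood higher in eIF4E cells. All 12 had a change above 0, 6 had stems without overlap (50%, against 8.38% over all genes) and 0 passed. MT-TE, the tRNA for glutamate, had stems of 0.28, 0.98 and 0.65 in vector cells against 3.75, 2.14 and 2.18 in eIF4E cells, a change of 2.64 ± 1.00 (edgeR adjusted p = 0.00781 with the block). Its input counts were 155, 22 and 34 in vector cells against 20, 13 and 24 in eIF4E cells, and its Cap IP counts 126, 24 and 37 against 128, 36 and 64. MT-TA, the alanine tRNA, had -0.42, -0.82 and -0.38 against 2.27, 1.08 and 0.65, and MT-TS1, a serine tRNA, had -2.06, -1.72 and -0.58 against 0.37, 0.053 and -0.26. In the median of the list, the difference was -1.23 in input and 0.30 in Cap IP. Without vector input replicate 1, the median change relative to all genes was 0.66, against 1.68 with it.

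The rRNA stems were widely spread. MT-RNR2 had stems of -5.18, -3.14 and 0.085 in vector cells against -0.024, -1.53 and -2.28 in eIF4E cells, with a change of 2.58 ± 1.55. The 13 mitochondrial mRNAs had a median change of 0.56 with 12 above 0, and in none did the stems part. Their median enrichment was -1.0, -2.90 and -0.31 in the vector stems against 0.22, -1.54 and -0.82 in the eIF4E stems. Replicate 2 was the lowest in both kinds of cell. MT-ND3 had the smallest p of them, at 1.30 ± 0.74. Without eIF4E replicate 1 the median of the mRNAs, taken relative to all genes, was -0.028.

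**Figure D4:**
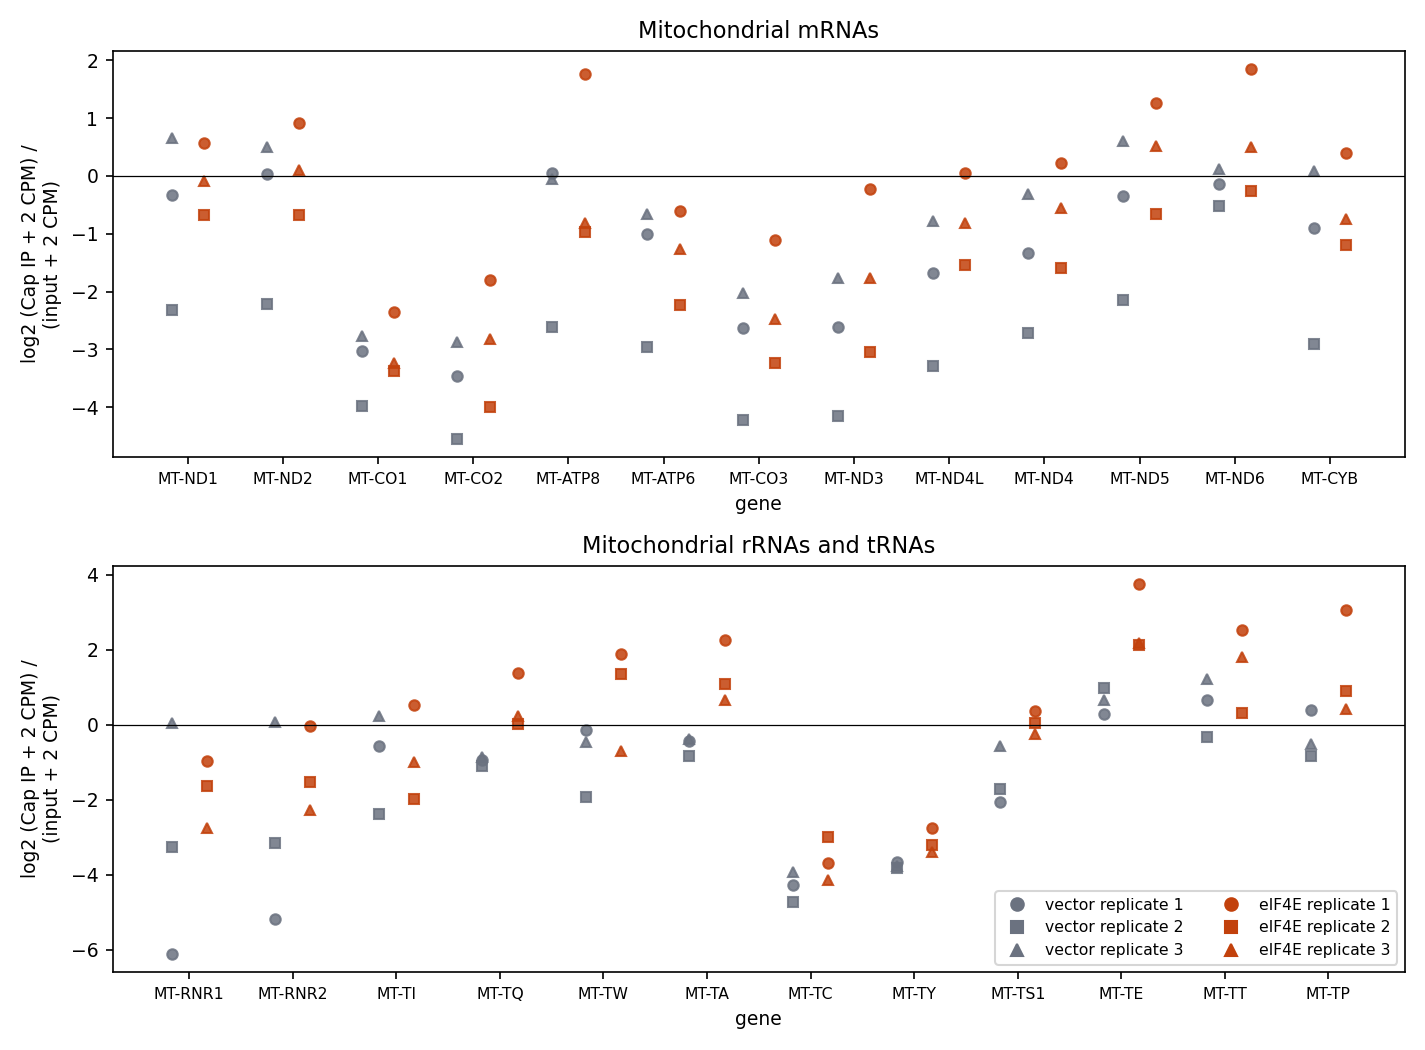
Cap enrichment (log2 of Cap IP + 2 CPM over input + 2 CPM, vertical axis) of the 13 mitochondrial mRNAs (top) and of the 12 tested mitochondrial rRNAs and tRNAs (bottom), with 1 symbol per stem. The mRNA stems overlap for each gene, while for MT-TA, MT-TE and MT-TS1 all orange symbols lie above the grey ones.

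The mRNAs of cytosolic ribosomal proteins typically start with a run of pyrimidines, which was not read for this list as a whole. The list had a median change of -0.45, with 10 of 78 above 0. It also holds genes named as ribosomal protein-like, of which RPL7L1, RPS27L, RPL26L1 and RPS10L lay above 0. In 15 (19.2%, against 8.31% over all genes and 16.3% of the shortest coding genes without opposite exons) the eIF4E stems lay wholly below. Stem medians were 0.66, 0.39 and 0.94 in vector cells against 0.48, 0.63 and -0.22 in eIF4E cells. The kinds of cell overlapped, and eIF4E replicate 3 was far below the other stems. RPS3 had 0.87, 0.16 and 0.96 against 0.11, 0.040 and -0.51, a change of -0.82 ± 0.38. RPL18 had 1.15, 0.80 and 1.4 against 0.49, 0.72 and -0.33, a change of -0.85 ± 0.41. The 25 other mRNAs listed as having such a start had a median of -0.21, among them GNB2L1 (RACK1), opposite to CTC-338M12.4, at -0.76 ± 0.38. Without both libraries of eIF4E replicate 3, the ribosomal protein median relative to all genes was -0.15, against -0.47 with it. It was -0.27 without vector input replicate 3 and -0.25 without eIF4E input replicate 3. For the 25 others it was -0.23, and -0.12 without both libraries of eIF4E replicate 1 and -0.13 without those of eIF4E replicate 2.

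The starts of RPS3 and RPL18 are printed to show the pyrimidine run, beside 3 genes standing lower without one (same layout and build, with the capital at the first transcribed base). They lie at chr11:75399498-75399527 (plus) for RPS3, chr19:48619169-48619198 (minus) for RPL18, chr16:4371828-4371857 (plus) for VASN, chr20:35664891-35664920 (minus) for CPNE1 and chr11:67606916-67606945 (plus) for NDUFV1.
RPS3: cttccgcccgcgagccacttCctttccttt
RPL18: cgcccaccccagcccgttctCtctttccgg
VASN: cgacctgcctccagcgagccGactccggag
CPNE1: cgctgagcgggccgacggccAttttgtgaa
NDUFV1: gcgcgccacctagcgtctctAtcgcgccag

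The first transcribed base was read from RefSeq starts for 7182 of the 9221 protein-coding genes. Median changes were -0.12 for the 3287 genes starting with A, -0.17 for 878 with C, -0.15 for 2949 with G and -0.058 for 68 with T. The 426 genes starting with C followed by 4 bases that are each C or T, read at the start on the gene's own strand only, had a median of -0.24, and the 6756 others -0.13. This start is held by 4.04% of all 27305 RefSeq promoters in the table. In genes without opposite exons the medians were -0.30 for 208 with the pyrimidine start and -0.25 for 3377 others.

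Of 40 lists of genes, 31 had a median below that of all genes and 9 above, and 0 members passed in any. Many of these lists are of protein-coding genes, whose median as a class was -0.14, with 10.7% wholly below. In the third of coding genes with the highest level these values were -0.18 and 15.6%. The shortest coding genes without opposite exons, cut at 3495 bases, had -0.37, with 27.9% above 0 and 16.3% wholly below. Whether the lists differ from coding genes of like length was not tested. The nuclear-encoded respiratory chain subunits had a median of -0.36, with 18 of 66 above 0 (27.3%) and 16.7% wholly below. Relative to all genes it was -0.38, and -0.20 without vector input replicate 3, -0.22 without eIF4E input replicate 3 and -0.14 without both libraries of that replicate. NDUFV1, a complex I subunit opposite to NDUFV1-DT, had stems of 0.20, -0.20 and 0.0033 in vector cells against -1.06, -1.55 and -1.0 in eIF4E cells, a change of -1.28 ± 0.44. The cytochrome c oxidase subunits COX6B1 and COX6A1 stood at -1.12 ± 0.45 and -1.27 ± 0.54. The 61 mitochondrial ribosomal proteins had a median of -0.32, with 26.2% above 0 and 13.1% wholly below. Relative to all genes it was -0.34, and it lay nearest to 0, at -0.082, without vector input replicate 3. It was also closer to 0 by over 1.5 times without vector Cap IP replicate 1 (-0.18), eIF4E input replicate 3 (-0.18), or both libraries of vector replicate 1 (-0.22), vector replicate 3 (-0.22) or eIF4E replicate 3 (-0.12). MRPS21 had 0.47, 1.14 and 0.86 against -0.27, -0.015 and -0.55, and MRPL18 had 0.98, 0.60 and 0.21 against -0.42, -0.78 and -0.72.

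Immediate early genes, which are transcribed within minutes of a stimulus, had a median of -0.45, with 4 of 26 above 0 and 8 wholly below (30.8%, against 8.31% over all genes). Set against all genes, the median was -0.47, and -0.31 without eIF4E Cap IP replicate 1 and -0.29 without eIF4E input replicate 3. The AP-1 gene JUN had 0.38, -0.11 and 0.44 in vector cells against -0.25, -0.33 and -0.76 in eIF4E cells. The phosphatase gene DUSP1 stood at -0.94 ± 0.50 and the growth arrest gene BTG2 at -0.86 ± 0.52. Contractile and cytoskeletal genes had a median of -0.44, with 5 of 30 above 0 and 11 wholly below (36.7%, against 8.31%). Relative to all genes the median was -0.46, and -0.26 without both libraries of vector replicate 3. ACTG1, the gene of gamma-actin and opposite to an unnamed gene, stood at -0.70 ± 0.36 and TAGLN, opposite to PCSK7, at -0.92 ± 0.50, while ACTA2 of the same list stood at 1.87 ± 0.55.

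Cholesterol synthesis genes had a median of -0.49 with 6 of 19 above 0, and their median input level stood higher by 0.66 in eIF4E cells. The median relative to all genes, -0.51, was -0.18 without eIF4E Cap IP replicate 1, -0.24 without vector Cap IP replicate 3, -0.29 without eIF4E input replicate 3 and -0.34 without vector input replicate 3. FDPS, a synthase gene of the pathway opposite to RUSC1-AS1, stood at -1.15 ± 0.51 and MVD at -1.13 ± 0.59. Glycolysis and hypoxia genes had a median of -0.35, with 9 of 29 wholly below (31.0%, against 8.31%), among them the phosphofructokinase gene PFKL and the glucose transporter gene SLC2A1. SLC2A1, opposite to an unnamed gene, had 0.80, 0.51 and 0.56 against -0.18, 0.010 and -0.065. The median of the list relative to all genes, -0.37, was -0.083 without vector Cap IP replicate 3, -0.15 without both libraries of that replicate and -0.17 without vector input replicate 1. It was between -0.25 and -0.23 without eIF4E input replicate 3 or eIF4E Cap IP replicate 1 or 3.

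**Figure D5:**
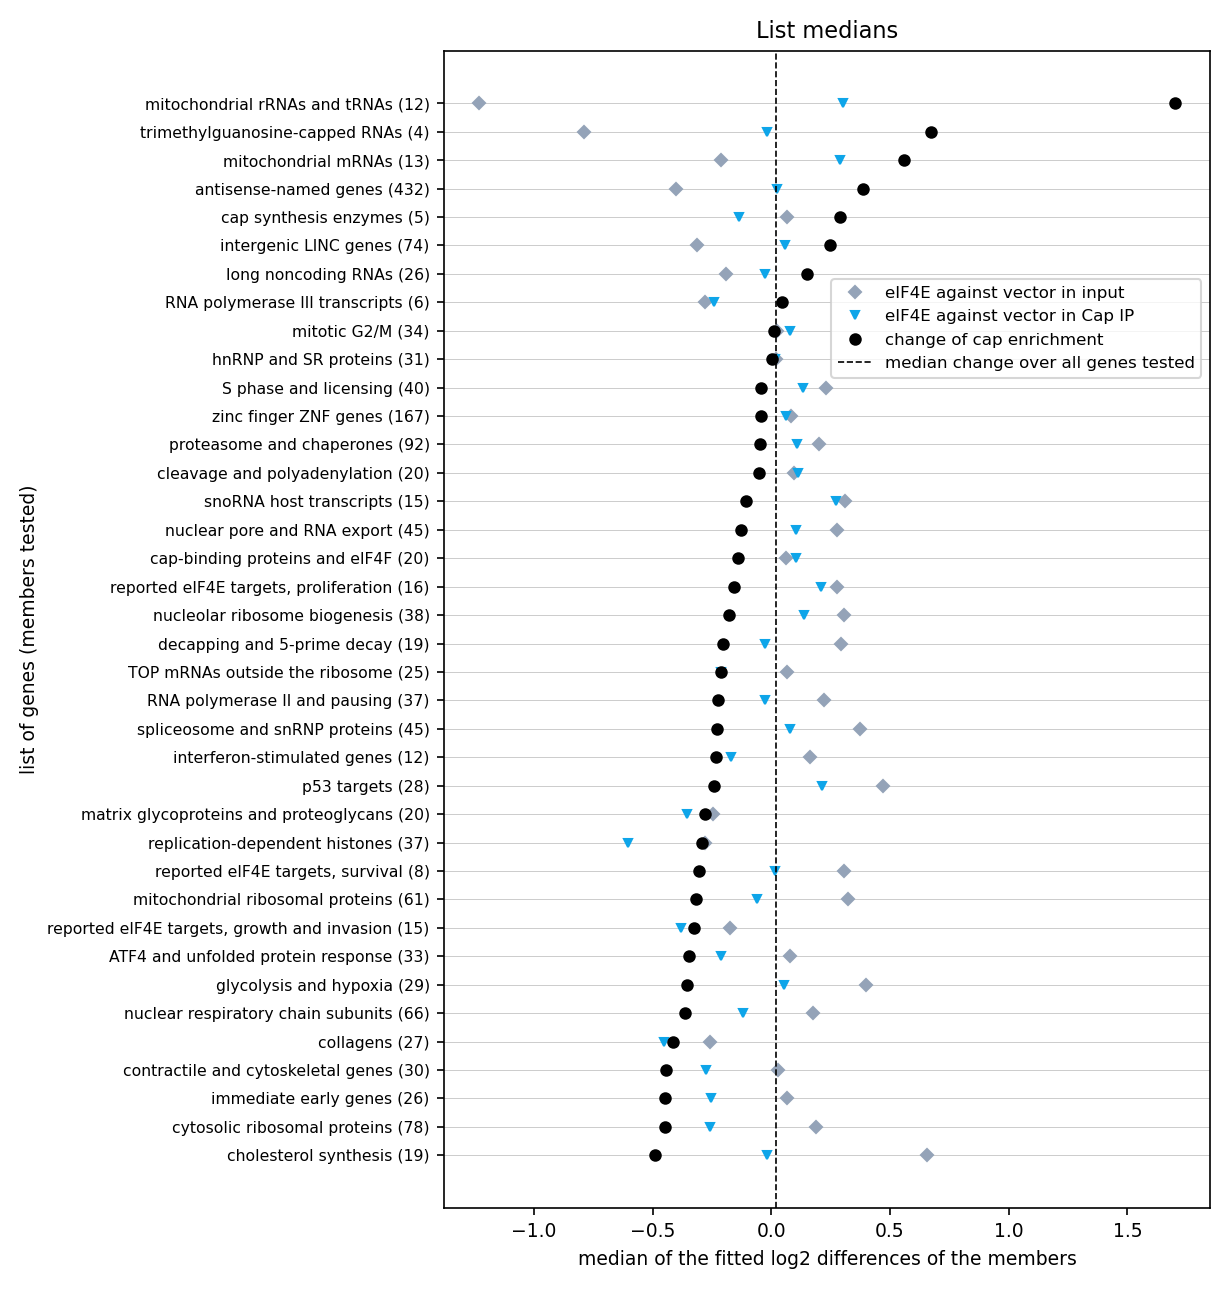
Median of the fitted log2 differences (horizontal axis) of the tested members of 38 of the 40 lists (vertical axis, members in parentheses), for the change of cap enrichment (black) and for eIF4E against vector in input (grey) and in Cap IP (blue). The dashed line is the median change over all genes, 0.019. The 2 lists left out had many members with few counts. Cholesterol synthesis (-0.49), ribosomal proteins (-0.45), immediate early (-0.45) and contractile genes (-0.44) lie close together at the low end, and mitochondrial rRNAs and tRNAs lie at 1.70. The cholesterol, ribosomal protein, immediate early and mitochondrial values each depend on single libraries, and the contractile value depends on a single stem.

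Other lists stood closer to all genes. The 167 ZNF zinc finger genes had a median of -0.045, the 31 hnRNP and SR proteins 0.0046, the 34 mitotic genes 0.012 and the 40 S phase genes -0.043. These lay above the median of all protein-coding genes, -0.14. The 92 proteasome and chaperone genes had -0.050, with 2 wholly above and 16 wholly below. The latter were 17.4%, against 8.31% over all genes and 10.7% of coding genes. The catalytic subunit genes PSMB1 and PSMB5 were among the members of smallest p. PSMB1 had 1.14, 1.2 and 0.62 in vector cells against -0.25, -0.24 and -0.28 in eIF4E cells, a change of -1.45 ± 0.50. PSMB5 stood at -1.38 ± 0.51. The 37 replication-dependent histones had a median of -0.29, with 6 above 0 and 1 wholly below (2.70%, against 8.31%). Relative to all genes it was -0.31, and it turned to 0.068 without vector input replicate 3, 0.020 without vector Cap IP replicate 1 and 0.034 without both libraries of eIF4E replicate 3. For snoRNA host transcripts the members diverged. SNHG14, opposite to UBE3A, stood at 1.17 ± 0.46. SNHG15 and SNHG25, without opposite genes, stood at -1.80 ± 0.79 and -1.72 ± 0.73.

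mRNAs reported elsewhere as export or translation targets of eIF4E did not move one way. Of 16 with roles in proliferation 6 had a change above 0, of 15 in growth and invasion 5, and of 8 in survival 2. The medians were -0.16, -0.32 and -0.31. Set against all genes, that of the proliferation genes turned to 0.012 without vector input replicate 3, that of the growth and invasion genes turned to 0.13 without both libraries of eIF4E replicate 1, and that of the survival genes was -0.20 without vector input replicate 3, against -0.32 with it. CCNA2, the cyclin A2 gene opposite to EXOSC9, had stems of 1.49, 2.65 and 1.32 in vector cells against 3.11, 3.21 and 3.02 in eIF4E cells, a change of 1.19 ± 0.55. With mitochondrial mRNAs as library sizes it was -0.28, still above the median over all genes, which that scaling lowered further. The kinase gene PIM1, with no opposite exons, had 0.025, -0.22 and 0.61 against -0.25, -1.15 and -1.52, a change of -1.26 ± 0.58. BCL2L1, the BCL-XL gene opposite to ABALON, stood at -0.67 ± 0.46, and EGFR, opposite to EGFR-AS1, at -1.36 ± 0.74. CCND1, the cyclin D1 gene and a classical target opposite to LTO1, was chosen outside the rule and stood at 0.042 ± 0.38, with overlapping stems.

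Some well-known long noncoding RNAs were also chosen outside the rule, after their values were seen. MALAT1, opposite to TALAM1, had 0.41, 0.19 and -0.067 in vector cells against 0.028, -0.48 and 1.4 in eIF4E cells, a change of 0.099 ± 0.60. NEAT1 stood at -0.073 ± 0.61. TUG1, opposite to unnamed genes and listed as protein-coding by the annotation, had 0, 1 and 2 counts in eIF4E Cap IP. No fold is given for it. HOTAIR, also opposite to unnamed genes, had fitted differences of -2.54 in input and -2.19 in Cap IP and stood at 0.35 ± 0.73. By the rule, MIAT, opposite to an unnamed gene, stood at 1.39 ± 0.96 (SE), and OIP5-AS1, opposite to OIP5, stood at 0.95 ± 0.55 with stems of 1.84, 2.02 and 0.65 against 3.26, 2.75 and 1.57. Of the antisense-named genes, ITFG1-AS1 stood at 1.84 ± 0.49, LACTB2-AS1 at 1.47 ± 0.46 and WDFY3-AS1 at 1.47 ± 0.46, each opposite to the gene in its name. WDFY3-AS1 had -0.90, -0.37 and -1.41 against 0.27, 0.15 and 1.15, so that each vector stem was depleted and each eIF4E stem enriched.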

How the data were processed

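The deposited values are whole-number read counts per gene, not normalized. Per the submitters' processing notes, the authors used STAR 2.5.1b, GRCh38.p5, featureCounts 1.4.5-p1 and DESeq2. The annotation and strand setting: not given in the sources used here. From these counts edgeR 4.0.16 in R 4.3.3 fitted 1 mean per group over all 12 libraries (filterByExpr, TMM, quasi-likelihood test, Benjamini-Hochberg adjustment). Stem ratios used 2 CPM as pseudocount. Replicates differed by more than counting noise (chi-square over its degrees of freedom, 5.1 to 18). Depth limits precision, as 3 counts stood for 1.19 to 3.15 CPM. Classes, positions and opposite exons came from GENCODE, to which 33465 genes matched by symbol, 1591 by an older symbol, 284 by a symbol with several entries and 23344 not at all. Starts came from RefSeq.

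Named were EIF4E and the cap enzymes, then the 12 called genes per direction with the largest change, given an average log2 CPM of 2 or more, separate stems, no clone name and at most 1 gene from any set of near-identical copies. As too few were called, the genes of smallest p filled the places. Each list could name its 4 members of smallest p. The members and lists were chosen with earlier results of these data known. Alternatives were DESeq2 1.42.0, limma 3.58.1 on stem ratios, other library sizes and filters, blocks for the stem and for the tag in the title, and each library or stem left out. Residuals of the input and Cap IP library of a stem correlated at 0.43, 0.27 and 0.44 for vector stems, and at 0.35, 0.08 and 0.11 for eIF4E stems. The fit was tested on simulated data. Figures were drawn with matplotlib 3.10.9. Some members of the lists are not reported here.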

Additional observations from a re-analysis of the deposited data

Results flagged for a closer look

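Among the genes picked by rule, several were flagged on either of 2 conditions. The interaction passed with the stem as a block, or the vector and eIF4E stems lay on opposite sides of 0. Many had been picked for separate stems or a small p, so the flags follow in part from that choice. How many of all genes tested meet the condition on the sides of 0 was not counted. The pairing behind the block was not established, and it called 0 genes without vector replicate 3. By the blocked test these were RFFL (log2 change 1.78), HTR5BP (2.05), CDR1 (1.44), USP3-AS1 (1.48), RSPH10B (1.83), NUDT6 (1.70), ITFG1-AS1 (1.84) and MT-TE (2.64). ATP8B1 (2.07) and MT-TA (2.19) met both conditions. Stems on opposite sides of 0 alone, with edgeR adjusted p from 0.0517 to 0.347 under the block, were seen for ACTA2 (1.87), MBOAT4 (2.54) and WDFY3-AS1 (1.47), which stood higher in eIF4E cells. The same held for PPIE (-2.01), C9orf142 (-2.21), SNHG15 (-1.80), MRPS21 (-1.33), MRPL18 (-1.39), COX6B1 (-1.12) and PSMB1 (-1.45), which stood lower. Without the block, each had an edgeR adjusted p of 0.833 over the 12460 genes tested. With no filter on low counts, MT-TE passed without the block (edgeR adjusted p = 0.0113 over 33699 genes).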

How the results depend on the processing

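The count of genes called was 0 with DESeq2 size factors, total counts, mitochondrial mRNAs or all but the 20 most abundant genes as library size, with at least 50 counts in 3 libraries, with DESeq2, limma or the tag block, and with any library or stem left out without a block. It was 3, all higher, with no filter on low counts. With the title stem as a replicate block it was 51, all higher, and 47, all higher, with DESeq2 size factors beside the block. In fits added after seeing the data, the blocked count without a stem was 40 (39 higher, 1 lower) and 31 (31 higher) without replicate 1 of vector and of eIF4E, 122 (116 and 6) and 161 (160 and 1) without replicate 2, and 0 and 139 (136 and 3) without replicate 3. In the residuals, 4 of 6 stems correlated best with themselves, and the pairing rests on shared titles only. Libraries that share a title tag correlated at 0.18, 0.01 and -0.04 for input, and at 0.20, 0.16 and 0.30 for Cap IP. The median over all genes became -0.084 with total counts and -0.87 with mitochondrial mRNAs as library size. With the latter, CMTR1 was at -0.58 (-0.52 with the block), TGS1 at -0.20, CCNA2 at -0.28, CCNE2 (opposite to INTS8) at -0.24 and SNHG14 at -0.069. Each of these was below 0 but above -0.87, the median over all genes in that setting. With 1 library left out, CMTR1 ranged from -0.32 to 0.54, EIF4E from -0.47 to 0.0036 (0.0033 without vector Cap IP replicate 3) and FAM103A1 from -0.53 to 0.040. Without both libraries of eIF4E replicate 1, CMTR1 was -0.31 (-0.29 with the block), and without those of vector replicate 3, EIF4E was 0.096 (0.092 with the block). The cause was not tested for these. Relative to all genes, the medians of clone-named genes (0.24 to 0.51), long noncoding RNAs (0.14 to 0.43), coding genes (-0.22 to -0.11), ribosomal proteins (-0.64 to -0.15) and mitochondrial tRNAs and rRNAs (0.66 to 2.33) kept their sign in 27 settings without a block. Of the 40 lists, 20 kept the sign of their relative median in these settings and 20 did not, among them mitochondrial mRNAs, histones, cap enzymes, cap-binding proteins, decapping genes and the proliferation and growth targets.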
